A study of Mus musculus with 15 samples.

Results

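The baseline transcriptome of the non-diabetic Apoe null mouse aorta was described from 4 of the 15 arrays of the series, the 4 whose titles give an Apoe knockout without diabetes and without deletion of the RAGE receptor. Each array held RNA from the whole aorta of 1 male C57BL/6 mouse, from the root to the bifurcation, at 9 weeks of age. The genotype was ApoE-/-, on a C57BL/6 background from Jackson labs. At 6 weeks each mouse had received 5 daily intraperitoneal injections of citrate buffer, the vehicle given as control, so all 4 carried the Apoe deletion and the injections alike. All groups described in the series lack Apoe, and the other 11 arrays were not used here. The mice are named by the numbers of their titles, replicates 5, 6, 7 and 8, and levels are listed in that order throughout.

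The aorta is built in layers. A single sheet of endothelium lines the lumen, the media holds smooth muscle cells between elastic lamellae, and the adventitia holds fibroblasts, collagen, nerves and resident macrophages. Fat surrounds the vessel, and along the thoracic part it has features of brown fat. Apolipoprotein E, the product of Apoe, carries lipids and lets the liver clear remnant lipoproteins. Smooth muscle, heart and skeletal muscle share part of their gene control, since serum response factor binds a short element called the CArG box in front of many contractile genes and works with partners such as myocardin.

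The promoters of 4 such genes are shown because their values separate the arrays in different ways. Each run holds the 250 bases before the start of the gene in the RefSeq annotation, read along the gene's own strand, with the CArG box in capitals and the remaining bases in lower case. Myl7, an atrial myosin light chain, lies on chromosome 11 (chr11:5898783-5899032, minus strand), Actc1, cardiac actin, on chromosome 2 (chr2:114052876-114053125, minus strand), Acta1, skeletal actin, on chromosome 8 (chr8:123894776-123895025, minus strand) and Myl9, a myosin light chain of smooth muscle, on chromosome 2 (chr2:156775214-156775463, plus strand), all in GRCm38.p6.
Myl7: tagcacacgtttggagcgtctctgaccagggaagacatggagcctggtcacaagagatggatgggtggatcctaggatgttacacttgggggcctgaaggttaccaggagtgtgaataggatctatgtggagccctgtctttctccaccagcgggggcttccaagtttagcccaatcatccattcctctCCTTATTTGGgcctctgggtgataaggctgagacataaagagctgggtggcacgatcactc
Actc1: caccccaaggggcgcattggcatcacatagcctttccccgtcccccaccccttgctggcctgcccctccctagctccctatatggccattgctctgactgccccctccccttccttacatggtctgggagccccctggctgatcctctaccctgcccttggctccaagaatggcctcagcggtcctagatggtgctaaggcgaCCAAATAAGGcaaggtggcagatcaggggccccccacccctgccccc
Acta1: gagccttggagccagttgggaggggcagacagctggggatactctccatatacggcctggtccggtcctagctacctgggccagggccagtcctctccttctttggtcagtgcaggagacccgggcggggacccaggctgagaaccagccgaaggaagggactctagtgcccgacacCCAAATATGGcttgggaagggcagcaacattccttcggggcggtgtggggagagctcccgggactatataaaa
Myl9: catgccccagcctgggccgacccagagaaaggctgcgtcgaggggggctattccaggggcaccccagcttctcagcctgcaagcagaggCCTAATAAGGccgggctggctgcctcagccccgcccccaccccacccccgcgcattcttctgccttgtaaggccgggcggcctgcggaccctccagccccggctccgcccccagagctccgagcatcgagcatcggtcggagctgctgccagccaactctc
The box began 61 bases before the start in Myl7, 47 in Actc1, 73 in Acta1 and 161 in Myl9. Replicate 8 stood far above the other arrays for the first 3 of these genes, while Myl9 was high on all 4, with levels of 12.18, 12.80, 12.75 and 12.45.

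Levels are the deposited log2 values, in which a step of 1 is a doubling of signal. Each of 18194 genes was represented by its brightest probe set, judged by the 4-array mean. Background was set on each array at the 95th percentile over 44 probe sets of olfactory receptors, which have hardly any known role in the vessel wall, and came to 3.63, 3.42, 3.51 and 3.50. Above that line on all 4 arrays were 12443 genes (68.4%), and 4622 (25.4%) were above it on none. Counts of list members above background are to be read beside these shares. The 13572 genes above it on at least 1 array are called measured below. Mean levels had a median of 5.46, a 90th percentile of 8.79 and a 99th of 11.25 over all genes, and 57 genes reached 12 or more. Signal also depends on the probes: over the 8002 measured genes with more than 1 probe set, the probe sets of a gene spanned a median of 2.34 log2. A percentile therefore gives the place of a gene's signal among all genes and not its share of the transcripts.

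Apoe, deleted in all 4 mice, was read by 1 probe set, at 3.93, 3.60, 4.04 and 3.71, just above the background of each array. Whether that probe set lies in the deleted part is not given in the sources used here. Ager, which encodes RAGE and is intact in these mice, gave 4.69, 4.59, 4.68 and 4.45, and its other probe set averaged 3.32. The Y-linked genes Eif2s3y and Kdm5d gave 7.80 ± 0.05 and 5.82 ± 0.25 (SD, n = 4) and Xist, which is made from the inactive X chromosome, 3.68 ± 0.17, for mice labelled male. At 3.86, 3.47, 3.61 and 3.78, Xist too lay just above the background of each array. A signal just above this line, here and below, therefore does not by itself show that a transcript is present.

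The 4 arrays were alike overall but did not scatter evenly. Pearson correlations across genes, which are not independent replicates, ranged from 0.986 between replicates 5 and 8 to 0.998 between replicates 6 and 7, and the latter pair differed by more than 1 log2 in 12 genes against 154 to 238 in the other pairs. Replicate 8 carried heart and skeletal muscle transcripts at far higher levels than the others. Replicate 5 differed in blood, lymphoid, lipid synthesis, contractile and striated muscle genes. Replicate 5 also had the largest difference between the 3′ and 5′ control probe sets of Actb, 1.57 log2 against 0.86, 0.86 and 1.08, and of Gapdh, 0.88 against 0.60, 0.53 and 0.46. A larger difference is a sign of shorter RNA or less complete copying. Its part in what set replicate 5 apart was not tested. The labels give an RNA integrity score above 8 for all samples.

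The markers of the aortic wall were among the strongest signals of the arrays. Acta2, the actin of smooth muscle, had the highest mean of all genes, with levels of 13.19, 13.43, 13.35 and 13.27 (mean 13.31 ± 0.10 SD, n = 4). Tagln, the actin-binding protein transgelin, stood at 12.89, 13.16, 13.09 and 12.90. Myh11, the heavy chain of smooth muscle myosin, stood at 12.01, 12.40, 12.39 and 12.15. Eln, which encodes elastin, stood at 11.60, 11.97, 11.91 and 11.27 (99.5th percentile). All 4 markers were higher in replicates 6 and 7 than in replicates 5 and 8, and Eln was lowest in replicate 8. The Acta2 signal came from a probe set that can share probes with related genes. The 2 other probe sets of Acta2 averaged 9.09 ± 0.42 and 6.91 ± 0.54 (SD, n = 4), again with replicate 6 highest. The other probe set of Eln gave 8.22, 9.23, 9.08 and 8.20. These dimmer probe sets of Acta2 and Eln thus differed more between the arrays than the brightest ones. That of Myh11 did not, with an SD of 0.16 against 0.19.

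**Figure D1:**
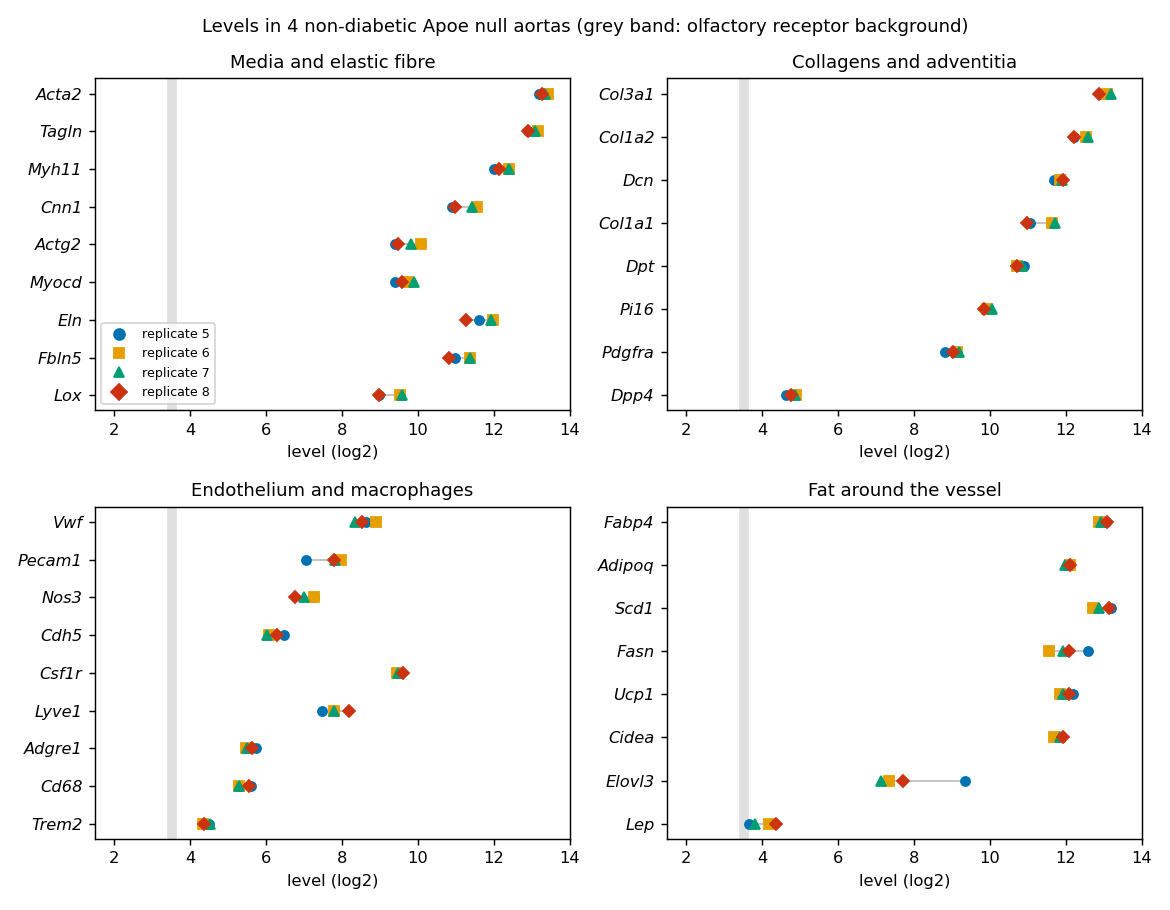
Log2 level (horizontal axis) of genes of the media and elastic fibre, of collagens and adventitia, of endothelium and macrophages and of fat, 1 marker per array, with the range of the array backgrounds as a grey band. The 4 arrays lie close together for most genes, with Elovl3, at 7.14 to 9.33, the widest in the plot.

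The contractile machinery of smooth muscle was present as a whole. All 20 genes of the list were above background on all 4 arrays, against 68.4% of all genes, with a median level of 11.03 against 5.46 over all genes. Tpm2, a tropomyosin, reached 12.80 ± 0.13 (SD, n = 4), Flna, the actin cross-linker filamin A, 12.22 ± 0.14, and Cald1, the regulatory protein caldesmon, 12.07 ± 0.12. Cnn1, the calcium-sensitive brake calponin, stood at 10.90, 11.56, 11.42 and 10.98, and Synpo2, a protein of actin bundles, at 10.26, 11.19, 10.97 and 10.54. Replicate 6 was highest for 14 of the 20 members and replicate 5 lowest for 15. The list's median fell from 11.36 in replicate 6 and 11.27 in replicate 7 to 10.88 in replicate 8 and 10.71 in replicate 5. How often each array was highest or lowest over all measured genes was not counted, here and for the lists below. The SD over all probe sets was 2.22 in replicate 5 and 2.28, 2.28 and 2.27 in replicates 6, 7 and 8, and its part in such counts was not tested. Actg2, the enteric smooth muscle actin, gave 9.39, 10.08, 9.81 and 9.47.

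Among the 20 members, 2 followed another pattern. Pln, phospholamban, which restrains the calcium pump, stood at 5.79, 6.61, 6.28 and 10.25, and Casq2, a calcium store protein, at 4.76, 5.35, 4.83 and 9.04. Both are also abundant in heart muscle, and both were high in replicate 8 alone. A list score, the mean over the measured members of the level minus the gene's mean over the 4 arrays, came to -0.36, 0.15, 0.02 and 0.19. Without Pln and Casq2, a choice made after their values were seen, it was -0.25, 0.24, 0.14 and -0.12, which turned the sign for replicate 8. Des, desmin, which smooth, heart and skeletal muscle share, was also highest there, at 7.57, 8.31, 7.80 and 8.67.

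Transcription factors of the smooth muscle programme were measured on all arrays. Myocd, myocardin, gave 9.40, 9.73, 9.89 and 9.58, and Srf, the factor that binds the CArG box, 7.38, 8.09, 7.92 and 7.50. Of the 25 vascular transcription factors listed, 23 were above background on all 4 arrays, led by Mef2a and Mef2c, at 9.72 ± 0.19 and 9.70 ± 0.10 (SD, n = 4), which cooperate with Srf, and by Zeb1, a repressor of epithelial genes, at 9.67 ± 0.21. The exceptions were Tbx20, a factor of heart and vessel development, at 3.29, 4.80, 5.07 and 5.92, and Tcf21, a factor of adventitial and epicardial fibroblasts, at 3.15, 5.29, 4.98 and 4.72. Both fell below background in replicate 5 only. Gata4, a factor of heart muscle and epicardium, was the lowest of the list, at 3.76, 3.98, 3.92 and 4.55.

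Channels and receptors that set vascular tone covered a wide span. Of 17 vasoactive receptors and enzymes, 15 were above background on all 4 arrays. Ptgis, which makes prostacyclin, gave 11.38, 12.05, 12.01 and 11.55, and Rgs5, a brake on G protein signalling of mural cells, 10.96, 11.67, 11.17 and 11.33. Gucy1a1, a subunit of the receptor for nitric oxide, stood at 9.62 ± 0.35 (SD, n = 4). Agtr1a, the main angiotensin receptor of the vessel, was at 5.85, 5.35, 5.66 and 6.52, whereas Agtr1b and Agtr2 were below background on all arrays, at 3.23 ± 0.08 and 2.15 ± 0.05. A signal below this line says that the probe set did not separate from the olfactory receptor probe sets, not that the transcript is absent.

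Of 17 ion channel genes of smooth muscle, 14 were above background on all 4 arrays. Abcc9, a subunit of the potassium channel gated by ATP, had the highest mean of them, at 10.31 ± 0.14 (SD, n = 4), and Ano1, a chloride channel, stood at 9.36 ± 0.23. Kcnmb1, the subunit that tunes the large potassium channel to calcium in smooth muscle, gave 7.75, 8.70, 8.66 and 7.91, with replicates 6 and 7 again above the other arrays. Ryr2, a calcium release channel that heart muscle also uses, and Cacna1h, a calcium channel subunit, were highest in replicate 8, at 8.35 against 5.51 to 6.22 and at 4.55 against 2.86 to 3.21. Cacna1h was below background on the other arrays. Its other probe set was below background on all arrays and lowest in replicate 8, at 2.61, 2.52, 2.52 and 2.39. Trpc6, a cation channel, was below background on all arrays, at 2.19 ± 0.03.

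Genes of the elastic fibre gave high signals. All 13 listed genes were above background on every array, with a median level of 9.31 and a median SD of 0.279. Fbln5, which tethers elastin to cells, gave 10.98, 11.38, 11.37 and 10.83, and Lox and Loxl1, the enzymes that cross-link elastin and collagen, 9.27 ± 0.34 and 10.87 ± 0.18 (SD, n = 4). Ltbp4, which helps to place elastin on microfibrils, was the most variable, at 8.59, 9.74, 9.66 and 9.24. Replicate 8 was lowest for 8 of the 13 genes, and the list score was -0.13, 0.17, 0.17 and -0.21. The 3 most even genes of the list were Fbln1 at 8.26 ± 0.03, Ltbp2 at 8.55 ± 0.11 and Fbln2 at 8.32 ± 0.14.

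Collagens and proteoglycans of the wall were close in signal to the contractile genes. All 18 listed were above background on every array, with a median level of 10.87. Col3a1, a fibrillar collagen of distensible tissues, had the second highest mean of all genes, at 12.93, 13.08, 13.17 and 12.86. Bgn, the proteoglycan biglycan, reached 12.72 ± 0.16 (SD, n = 4), and Sparc, a collagen-binding matrix protein, 12.38 ± 0.17. Col1a1, which encodes the first chain of collagen I, gave 11.05, 11.64, 11.71 and 10.97 and Fn1, fibronectin, 10.74, 11.50, 11.23 and 10.87. Replicate 7 was highest for 11 of the 18 and replicate 8 lowest for 11. Vcan and Aspn had the lowest means, at 8.78 ± 0.23 and 7.72 ± 0.12.

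Basement membrane genes were also all measured, 13 of 13 on every array, with a median level of 9.22. Col4a1 and Col4a2, which share a promoter and form 1 collagen, stood at 11.62 ± 0.24 and 10.65 ± 0.25 (SD, n = 4). Col18a1, the source of endostatin, gave 11.49, 11.57, 11.57 and 10.88, so that replicate 8 alone was low on this probe set. Its other probe set gave 10.13, 10.69, 10.60 and 10.01, with replicates 5 and 8 both low. Nid2, a linker protein, was by far the dimmest of the list, at 4.49 ± 0.24, while its relative Nid1 was at 9.25 ± 0.12.

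Fibroblast genes of the adventitia were more even than the contractile, elastic fibre, collagen, basement membrane and endothelial lists, by their median SDs. All 11 were above background on every array, with a median level of 9.92 and a median SD of 0.12, against 0.157 over the measured genes. Gsn, the actin-severing protein gelsolin, stood at 12.18 ± 0.05 (SD, n = 4) and Dpt, the collagen-binding protein dermatopontin, at 10.78 ± 0.09. Pi16, a marker of adventitial fibroblasts, gave 9.86, 9.93, 10.05 and 9.83. Pdgfra, the growth factor receptor that marks fibroblasts, gave 8.83, 9.12, 9.19 and 9.04. Dpp4, a surface peptidase, was dim on all arrays, at 4.79 ± 0.13. The list score ran from -0.10 in replicate 5 to 0.10 in replicate 7.

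Endothelial genes gave moderate signals. All 15 were above background on every array, with a median level of 7.07, at the 70.6th percentile. Vwf, the platelet-binding factor stored by endothelium, gave 8.63, 8.89, 8.35 and 8.54. Pecam1, a junction protein, gave 7.06, 7.97, 7.81 and 7.80, with replicate 5 low. Nos3, the nitric oxide synthase of endothelium, had a mean of 7.08 ± 0.24 (SD, n = 4), lowest in replicate 8, and Cdh5, the junctional cadherin, 6.48, 6.08, 6.03 and 6.29. Over the list, replicate 7 was lowest for 9 of the 15 genes and highest for none, replicate 8 was highest for 7, and the list score stayed between -0.13 and 0.08. In tissue RNA, fewer cells of a type and less RNA per cell cannot be told apart, here and for every list below.

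Genes of fat were among the brightest. Fabp4, the fatty acid carrier of adipocytes, stood at 13.05, 12.85, 12.91 and 13.08 and had the fourth highest mean. Scd1, the desaturase of lipid synthesis, followed at 13.18, 12.70, 12.87 and 13.14. Adipoq, adiponectin, gave 12.06 ± 0.07 (SD, n = 4) and Lpl, lipoprotein lipase, 12.43 ± 0.09. All 10 listed genes of white adipocytes and lipid storage were above background on every array, with a median level of 10.23. Lep, leptin, a hormone of large white adipocytes, was only just above background, at 3.66, 4.17, 3.81 and 4.37. Car3, a carbonic anhydrase of adipocytes and muscle, was bright and even, at 12.87 ± 0.04.

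Brown fat genes were bright as well. Ucp1, the uncoupling protein that defines brown fat, stood at 12.18, 11.83, 11.93 and 12.08, at the 99.7th percentile of all genes. Cidea, a lipid droplet protein of brown fat, gave 11.72, 11.67, 11.84 and 11.91, and Cox8b, a subunit of cytochrome oxidase in brown fat and striated muscle, 12.46, 11.76, 11.91 and 12.14. All 9 listed genes were above background on every array, with a median level of 9.19. Replicate 5 was highest for 7 of the 9 and replicate 6 lowest for 8, and the list score was 0.41, -0.36, -0.19 and 0.14. Elovl3, a fatty acid elongase that brown fat induces in cold, stood apart at 9.33, 7.33, 7.14 and 7.71, highest in replicate 5.

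Lipid synthesis varied in the same order of arrays as the brown fat list. All 12 listed genes were above background on every array, with a median level of 10.16, and the list score was 0.40, -0.35, -0.15 and 0.10. Fasn, fatty acid synthase, gave 12.57, 11.55, 11.93 and 12.09. Acly, which makes cytosolic acetyl-CoA, gave 11.36, 10.02, 10.21 and 10.40, and Elovl6, an elongase, 10.66, 9.31, 9.77 and 10.19. Replicate 5 was highest for 9 of the 12 genes and replicate 6 lowest for 10. In the glycolysis list replicate 5 was highest for 11 of 15 genes, among them Pfkl, a phosphofructokinase, at 10.16, 8.77, 9.14 and 9.29. Its scores of 0.16, -0.24, -0.19 and 0.28 also hold the muscle enolase Eno3, which was high in replicate 8. White fat genes, in contrast, had scores of only 0.08, -0.07, -0.14 and 0.13. The scores rest on the brightest probe set of each gene. Dimmer probe sets of Fabp4, of the white fat list, had SDs of 0.17 to 0.27, against 0.11 for its brightest. The dimmer probe set of Scd1, of the lipid synthesis list, had an SD of 0.60 against 0.23.

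**Figure D2:**
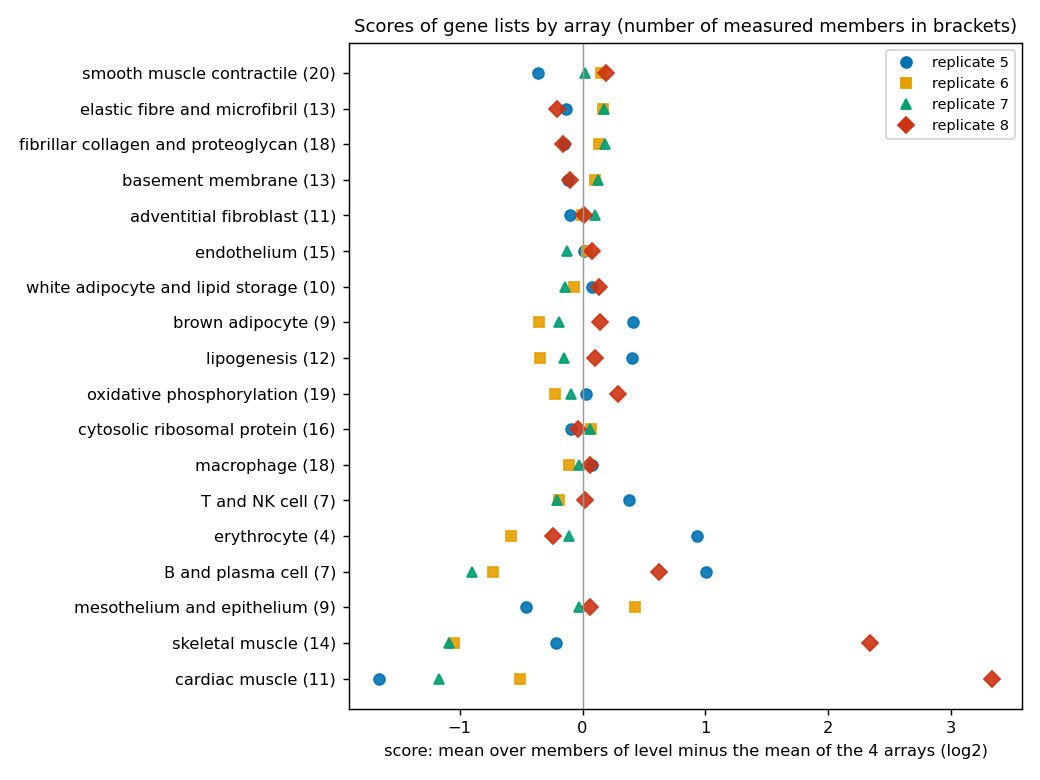
Score of 18 gene lists on each array, the mean over measured members of the level minus the gene's mean over the 4 arrays, in log2. Most lists lie within 0.5 of zero on every array, while cardiac muscle reaches 3.33 and skeletal muscle 2.34 in replicate 8.

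Mitochondrial genes were bright on all 4 arrays. All 19 genes of oxidative phosphorylation were above background everywhere, with a median level of 11.43. Cox5b and Cox4i1, subunits of cytochrome oxidase, stood at 12.61 ± 0.22 and 12.29 ± 0.13 (SD, n = 4), and ND5, encoded by the mitochondrial genome, at 12.89, 12.90, 12.89 and 13.10. Replicate 8 was highest for 15 of the 19 and replicate 6 lowest for 18, with scores of 0.03, -0.22, -0.10 and 0.29. The most variable member was Atp5g1, a subunit of ATP synthase, at 8.18, 8.61, 8.37 and 9.98. Fatty acid oxidation genes (15 of 15 above background on every array, median 10.80) had scores of 0.14, -0.23, -0.07 and 0.16, and Acadm, an acyl-CoA dehydrogenase, led them at 11.75 ± 0.13. Both brown fat and muscle are rich in these transcripts. The brown fat scores were 0.41, -0.36, -0.19 and 0.14 and the cardiac muscle scores -1.65, -0.50, -1.17 and 3.33, and their part was not tested.

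Genes of striated muscle were among those with the largest differences between the 4 aortas. The SD over the arrays exceeded 1 log2 in 102 of the 13572 measured genes (0.752%) and 0.5 in 331 (2.44%), against a median SD of 0.157. Of those 102, 33 were members of any gene list. They included 13 of the 14 skeletal muscle genes and 10 of the 11 cardiac muscle genes. The lists were chosen with earlier results of these data known, so these counts are a description and no test. Replicate 8 was the highest array for 91 of the 102. Without replicate 8, the count of genes with an SD above 1 was 27, of which 16 were among the 102. The median level of the cardiac list was 6.97 with that array and 5.94 without it, and that of the skeletal list 5.29 and 4.48.

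Sarcomere and hormone genes of the atrium were among the genes that differed most. Sln, sarcolipin, which regulates the calcium pump in atrial muscle, stood at 4.88, 5.94, 5.49 and 11.56. Nppa, the atrial natriuretic peptide, gave 3.68, 4.89, 3.71 and 9.67, and Myl7 gave 6.14, 7.06, 6.40 and 12.17. For all 3, replicate 8 lay far above the others, which were close to each other. Myl4, the other atrial light chain, gave 6.33, 7.03, 6.53 and 11.63, and Mybphl, a myosin-binding protein of atrial muscle, 3.65, 3.78, 3.18 and 8.36. The widest spread of all measured genes was that of Smpx, a small protein of striated muscle, at 3.28, 4.42, 3.46 and 10.03, which was above background in replicates 6 and 8 only.

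Genes that atrium and ventricle share also peaked in replicate 8 but were spread more widely over the other arrays. Myh6, the alpha heavy chain of cardiac myosin, gave 6.48, 9.36, 7.66 and 12.45, Tnnt2, cardiac troponin T, 6.45, 8.33, 8.06 and 11.94, and Actc1 6.53, 7.95, 7.08 and 12.02. Replicate 5 was the lowest array in each case. Tnni3, cardiac troponin I, gave 4.67, 6.02, 5.36 and 10.76. The summed linear signal of the 11 cardiac genes made up 0.0162%, 0.0495%, 0.0274% and 0.784% of the signal of all genes. Replicate 8 therefore carried the transcripts far above the other aortas, and replicate 6 more than replicates 5 and 7.

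Among 3 genes known from the ventricle, chosen after their values were seen, the arrays were ordered in other ways. Myl2, the regulatory light chain of ventricle and slow skeletal muscle, gave 5.31, 7.36, 5.82 and 5.89, so that replicate 6 was the high array. Myl3, the essential light chain of the same tissues, gave 4.25, 6.11, 4.82 and 6.42, highest in replicate 8 but with replicate 6 close to it. Nppb, the natriuretic peptide of ventricle and atrium, was at background, at 3.18, 3.57, 3.25 and 3.42. Transcripts known from the atrium were thus at high level in 1 of 4 samples of tissue labelled as aorta from the root, and the amount of heart tissue at the root was not tested.

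Skeletal muscle genes were highest in replicate 8 for 14 of 14, with list scores of -0.21, -1.04, -1.08 and 2.34. Myh1, a fast myosin heavy chain, gave 5.99, 4.17, 4.53 and 9.03. Acta1 gave 7.10, 5.91, 5.64 and 9.20, and Tnnc2, fast troponin C, 6.42, 4.79, 4.12 and 8.75. Replicate 5 was second in these 3 genes, which sets them apart from the cardiac genes, where replicate 5 was lowest for 10 of 11. Ckm, muscle creatine kinase, gave 5.00, 4.97, 4.40 and 9.09, and Mb, myoglobin, 6.88, 7.77, 7.13 and 11.73, and both are also heart genes. Myh4, the fastest myosin of limb muscle, was above background in replicate 8 only, at 3.01, 2.36, 2.61 and 6.40.

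**Figure D3:**
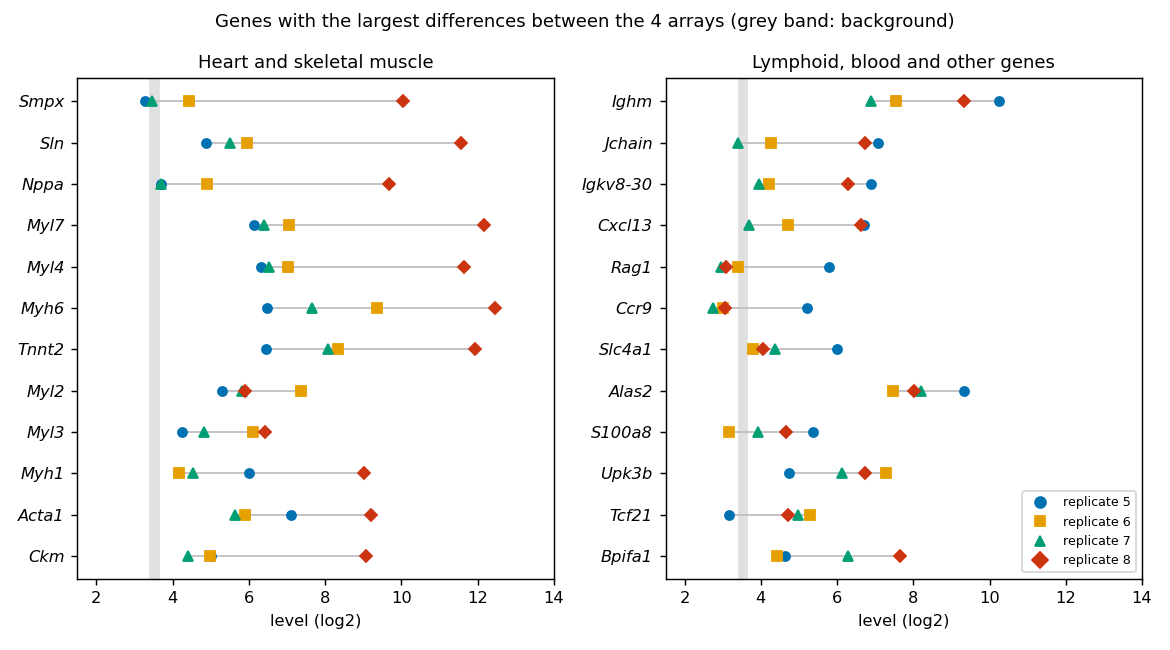
Log2 level (horizontal axis) on each array of striated muscle genes at left and of lymphoid, blood and other genes at right, with the background as a grey band. Replicate 8 lies apart for atrial genes such as Sln (11.56 against 4.88 to 5.94), whereas replicates 5 and 8 lie together for immunoglobulin genes such as Jchain (7.07 and 6.72 against 4.26 and 3.40).

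Other genes of striated muscle were high on the same array. Replicate 8 lay more than 1 log2 above the median of the other 3 arrays in 177 measured genes (1.3%), and more than 1 below it in 6 (0.0442%). Of the 177, only 36 were members of any gene list, so most were not assigned to a tissue here. Ckmt2, the mitochondrial creatine kinase of striated muscle, gave 3.86, 5.22, 3.60 and 9.97, Lmod2, a builder of thin filaments, 3.12, 3.88, 3.18 and 8.90, and Csrp3, a protein of the Z disc, 5.53, 5.86, 5.05 and 10.16. Eno3, the muscle enolase, gave 6.53, 6.38, 6.28 and 9.84, and Pgam2, the muscle phosphoglycerate mutase, 3.96, 4.36, 3.81 and 8.96. Hamp, the iron hormone hepcidin, known from liver and also made in heart, gave 3.93, 4.07, 3.78 and 8.92. Of the 177 genes, 81 had further probe sets, and for 46 of these another probe set of the gene also lay more than 0.5 log2 higher in replicate 8.

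Lymphoid genes divided the arrays another way. Ighm, the heavy chain of immunoglobulin M, gave 10.25, 7.55, 6.89 and 9.32, and Jchain, which joins immunoglobulin units, 7.07, 4.26, 3.40 and 6.72. Ms4a1, the B cell antigen CD20, gave 5.27, 3.35, 3.47 and 5.23, and Cxcl13, the chemokine that draws B cells, 6.69, 4.71, 3.69 and 6.62. In these 4 genes, replicates 5 and 8 were high and replicates 6 and 7 low. How many of all measured genes divide the arrays in this way was not counted. Only 3 of 10 B and plasma cell genes were above background on every array, Ighm, Mzb1 and Cd79a. The B cell receptor genes Cd79a and Cd79b gave 4.37, 3.54, 3.89 and 4.31 and 5.19, 3.19, 3.06 and 4.19. Immunoglobulin probe sets can cross-hybridise within the family, and of the 11 Ighm probe sets the second brightest divided the arrays likewise, at 8.57, 6.39, 6.20 and 8.04, whereas the next brightest did not, at 5.81, 5.60, 5.68 and 5.66.

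Genes of T cells and their precursors tended to be highest in replicate 5. This held for 6 of the 7 measured genes of the T and NK cell list. Rag1, the recombinase of developing lymphocytes, gave 5.80, 3.41, 2.97 and 3.08 and was above background in that array only. Ccr9, a homing receptor of thymocytes and gut T cells, gave 5.22, 3.01, 2.76 and 3.05, but on 1 of its 5 probe sets. Cd8a stood at 5.12, 4.61, 4.57 and 4.53 and Cd3d at 4.92, 4.27, 4.01 and 4.12. Cd4 and Cd3e, with SDs of 0.17, were more even, with Cd4 still highest in replicate 5 and Cd3e in replicate 8. Among 11 T and NK cell genes, 5 were above background on every array and 4 on none, with scores of 0.38, -0.19, -0.21 and 0.02. The cell cycle list had a median level of 4.22, against 5.46 over all genes. Of its 15 genes, 10 were above background on every array, against 68.4% of all genes. Replicate 5 was highest for 7 of those 10, among them Mki67, a marker of dividing cells, at 5.05, 3.82, 4.22 and 4.18 and Top2a, a topoisomerase of dividing cells, at 4.81, 3.78, 3.89 and 3.64. It was lowest for 2, among them the brightest member Pcna, the sliding clamp of DNA replication, at 8.31, 8.84, 8.91 and 8.82.

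Red cell transcripts were highest in replicate 5 too. Slc4a1, the anion exchanger of erythrocytes, gave 5.99, 3.80, 4.38 and 4.07, Alas2, which starts haem synthesis in red cells, 9.33, 7.48, 8.21 and 8.02, and Hbb-b2, a beta globin, 7.23, 5.96, 6.30 and 6.27. Replicate 5 was highest and replicate 6 lowest for all 4 of the measured erythrocyte genes. Neutrophil genes such as S100a8 (5.37, 3.18, 3.92 and 4.66) and S100a9 (5.42, 3.69, 4.54 and 4.80) had replicate 5 highest and replicate 6 lowest as well, though the list of 12 neutrophil and mast cell genes had scores of only 0.11, -0.21, 0.04 and 0.05. The 2 dimmest erythrocyte genes, Hba-a1 and Epb42, were below background on all arrays, at 2.83 ± 0.16 and 3.14 ± 0.14 (SD, n = 4). Whether blood or other tissue came with replicate 5 was not tested.

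Macrophage genes had scores close to 0, from -0.11 to 0.07, with members that differed in opposite ways. Of 18, 17 were above background on every array, with a median level of 6.73 and a median SD of 0.174. Replicate 5 was highest for 9 and lowest for 4, and replicate 6 was lowest for 10. Csf1r, the receptor for the growth factor of macrophages, stood at 9.53, 9.44, 9.46 and 9.59. Lyve1, Cd163 and Mrc1, which mark macrophages resident around vessels, were lowest in replicate 5 and stood at 7.81 ± 0.28, 7.70 ± 0.22 and 7.59 ± 0.23 (SD, n = 4). Tyrobp, a signalling adaptor of myeloid cells, was highest there, at 7.45, 6.69, 6.86 and 6.76. Trem2, a receptor of lipid-laden macrophages, was at 4.44 ± 0.09 and Cd68, a lysosomal protein, at 5.44 ± 0.17. Aif1 was the member that failed on 1 array, at 3.49, 3.79, 3.70 and 3.65. Genes of MHC class II, which present antigen, were lowest in replicate 6 for all 5 measured of 6, led by H2-Aa at 8.93, 8.39, 8.62 and 8.94.

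Inflammatory genes of the vessel wall were mixed. Of 12 listed, 9 were above background on every array, against 68.4% of all genes. The 3 above it on none were Ccl2, Il6 and Sele, at 3.37 ± 0.06, 2.47 ± 0.15 and 2.40 ± 0.08 (SD, n = 4). Vcam1, the adhesion molecule that draws monocytes, stood at 7.37 ± 0.27, lowest in replicate 5, and Nfkbia, the inhibitor that NF-kappa B induces, 11.19 ± 0.21. Tnf and Il1b were just above background, both with a mean of 4.28. Interferon-stimulated genes were all above background (11 of 11), and Rsad2, an antiviral enzyme, was the widest of them at 9.23, 7.29, 7.61 and 7.97, with replicate 5 high.

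Genes of airway and mesothelium, tissues next to the vessel, differed between the arrays. Bpifa1, a secreted protein of the upper airway, gave 4.64, 4.43, 6.28 and 7.66, and Scgb1a1, the club cell secretoglobin, had a mean of 6.12 ± 0.68 (SD, n = 4), both highest in replicate 8. Of the surfactant genes, Sftpb was above background on all arrays, at 4.52 ± 0.17 (SD, n = 4), Sftpc just above it, at 3.62 ± 0.12, and Sftpd and Sftpa1 below it, at 3.43 ± 0.06 and 2.86 ± 0.02. Upk3b, a uroplakin of mesothelium, gave 4.73, 7.29, 6.14 and 6.74 and Msln, mesothelin, 3.36, 4.80, 3.99 and 4.24, with replicate 5 lowest and replicate 6 highest in both. Of 10 nerve and Schwann cell genes, 8 were above background on every array, and Mbp, a myelin protein, was highest in replicate 8, at 5.58, 5.45, 5.81 and 7.75.

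Hox genes, which record position along the body axis, were above background on every array for 18 of 29, against 68.4% of all genes. Hoxa5, Hoxb3 and Hoxb2 led, at 7.19 ± 0.23, 6.91 ± 0.26 and 6.70 ± 0.27 (SD, n = 4). Group 9 was the last with genes above background on all arrays (Hoxa9 at 5.42 ± 0.46, Hoxc9 at 4.77 ± 0.10 and Hoxd9 at 4.55 ± 0.21). Of groups 10, 11 and 13, Hoxa10, Hoxd10, Hoxa11, Hoxd11, Hoxa13 and Hoxd13 were on none, and Hoxc10 was on 1. Replicate 6 was highest for 13 of the 19 measured genes.

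Growth factor pathways of the wall were broadly measured. All 17 genes of TGF-beta and BMP signalling were above background on every array, with the receptors Bmpr2 at 10.07 ± 0.20, Tgfbr2 at 9.55 ± 0.21 and Tgfbr1 at 9.24 ± 0.28 (SD, n = 4) and the ligands Tgfb3 at 8.53 ± 0.30, Tgfb2 at 8.14 ± 0.13 and Tgfb1 at 6.66 ± 0.20. All 13 Notch genes were above background, led by the receptor Notch2 at 9.02 ± 0.11, with the ligand Jag1 at 8.06 ± 0.05 and the endothelial ligand Dll4 at 4.62 ± 0.15. Of 18 Wnt genes 16 were, led by Ctnnb1, beta-catenin, at 11.38 ± 0.23. The ligand Wnt4 was above background on 1 array and the inhibitor Dkk2 on none, at 3.38 ± 0.09 and 3.14 ± 0.28. Replicate 5 was lowest for 12 of the 17 genes of the TGF-beta list.

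Of 11 genes tied to calcification, 10 were above background on every array. Mgp, the matrix Gla protein that keeps arteries free of mineral, was among the 20 highest means of all genes, at 12.63, 12.89, 12.98 and 12.76. Sost, sclerostin, a Wnt inhibitor first known from bone, gave 10.07, 11.09, 11.07 and 10.26, with replicates 6 and 7 high. Abcc6, whose loss causes ectopic mineral, was below background on all arrays, at 3.13 ± 0.09 (SD, n = 4).

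Redox and chaperone genes gave high signals, and those of the clock a wide span. All 16 antioxidant genes were above background on every array, with Gpx1 at 11.52 ± 0.05 and Sod3, the extracellular superoxide dismutase, at 10.53 ± 0.30 (SD, n = 4). Of the 17 heat shock and chaperone genes, all above background, replicate 5 was lowest for 13, among them Hspb1, a small heat shock protein, at 10.91, 11.92, 11.70 and 11.60. Dbp, an output of the circadian clock, gave 11.03, 11.33, 11.05 and 10.70, and the clock gene Per2 gave 7.10, 8.35, 8.39 and 8.23. Arntl, which drives both, stood at 4.07 ± 0.09. Of 17 immediate early genes, which respond to stimuli within minutes, 15 were above background on every array, with Dusp1 at 10.89 ± 0.13, Egr1 at 9.77, 10.26, 9.62 and 9.49 and Fosb, above background on 3 arrays, at 3.22, 4.36, 4.60 and 4.34.

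Genes of cholesterol synthesis and transport were all above background (13 of 13, Apoe among them). Npc2, a carrier of cholesterol in lysosomes, led at 10.62 ± 0.15 (SD, n = 4), and Abca1, which exports cholesterol from cells, stood at 10.02 ± 0.06. Insig1, which holds back sterol synthesis, varied most, at 8.72, 7.75, 7.96 and 8.30.

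Replicate 5 lay more than 1 log2 above the median of the other arrays in 70 measured genes (0.516%) and below it in 68 (0.501%), against 11 (0.081%) and 23 (0.169%) in replicate 6 and 7 (0.0516%) and 24 (0.177%) in replicate 7. Another probe set lay more than 0.5 log2 the same way for 26 of 33 genes high and 18 of 43 genes low in replicate 5, for 4 of 8 and 5 of 7 in replicate 6, for 0 of 3 and 10 of 12 in replicate 7, and for 0 of 5 genes low in replicate 8. With 3 arrays the counts of deviating genes moved: those of replicate 5 were 39 above without replicate 6 and 120 and 116 below without replicate 6 or 7, whereas the 177 of replicate 8 stayed between 172 and 181. The counts of replicates 6 and 7 changed more, to between 0 and 19 above and 11 and 126 below. Of the 70 genes high in replicate 5, 18 were members of any list, among them 6 skeletal muscle genes and 4 B and plasma cell genes. Of the 68 low there, 15 were, among them 6 cardiac muscle genes. Besides the blood, lymphoid and skeletal muscle genes, Mtarc1, a molybdenum enzyme of mitochondria, stood high in replicate 5, at 6.24, 4.11, 3.98 and 4.50. Impact, an imprinted regulator of translation, was low there, at 5.31, 7.33, 7.32 and 7.30, but on 1 of 3 probe sets. Col19a1, a collagen of basement membrane zones, was higher in replicates 6 and 7, at 4.87, 6.52, 6.11 and 5.09. So were Igsf9, an adhesion protein, at 5.01, 6.18, 6.18 and 5.02, and the elastic fibre list score, though not every gene of that list.

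The steadiest bright genes had nearly the same signal on all 4 arrays. Among the 1819 genes with the highest means (8.79 or more) the median SD was 0.157, and 18 genes exceeded 0.5. Vcp, which unfolds proteins for degradation, was the steadiest, at 10.83, 10.81, 10.82 and 10.81 (SD 0.01), on its brightest probe set only, since its other probe set gave 6.29, 6.86, 6.91 and 6.99. Akr1a1, an aldehyde reductase, stood at 11.68 ± 0.02 (SD, n = 4), Eif3l, a translation initiation subunit, at 9.46 ± 0.02, and Zbtb16, a factor that glucocorticoids induce, at 10.43 ± 0.02. Dimmer probe sets of Akr1a1 and Zbtb16 had SDs of up to 0.12 and 0.27. The 16 ribosomal protein genes of the list had a median SD of 0.09 at a median level of 11.63, with Rps14 at 12.15 ± 0.07. Rps29, not on the list, had an SD of 0.02 at 12.72 on a probe set that can share probes with related sequences.

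**Figure D4:**
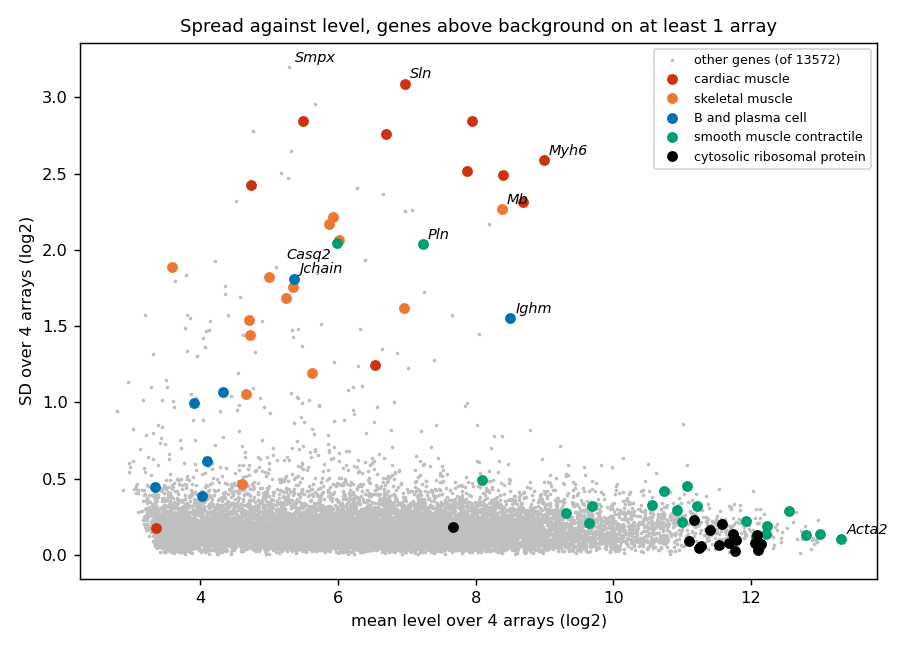
SD over the 4 arrays (vertical axis, log2) against mean level (horizontal axis, log2) for 13572 genes above background on at least 1 array, with members of 5 lists in colour. Cardiac and skeletal muscle genes lie at SDs above 1, except Nppb and Myoz1, together with Pln and Casq2 of the contractile list, while ribosomal protein genes lie near 0.1.

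Promoter sequence differed with the level of signal across genes. For 14368 of the 18194 genes a RefSeq promoter was matched. Its 250 bases before the start were searched on both strands and compared over 10 groups of 1436 or 1437 genes, from group 1 with the lowest mean levels to group 10 with the highest. The GC box GGGCGG occurred in 22.4% of group 1, 66.9% of group 8 and 61.4% of group 10, against 49.99% of all 14368. CpG dinucleotides, of which GGGCGG itself holds 1, had a median of 3 in group 1 and 17 in group 10. The TATA box TATAAA went the other way, from 17.4% in group 1 to 4.80% in group 7 and 7.59% in group 10. CCAAT was nearly flat, between 34.5% and 38.1%. The ETS site CCGGAAG was in 3.83% of group 1, 16.1% of group 9 and 12.8% of group 10. Median GC content was 48.4% in group 1 and 60.8% in group 10, so the motifs rich in G and C and the CpG count move with base composition.

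**Figure D5:**
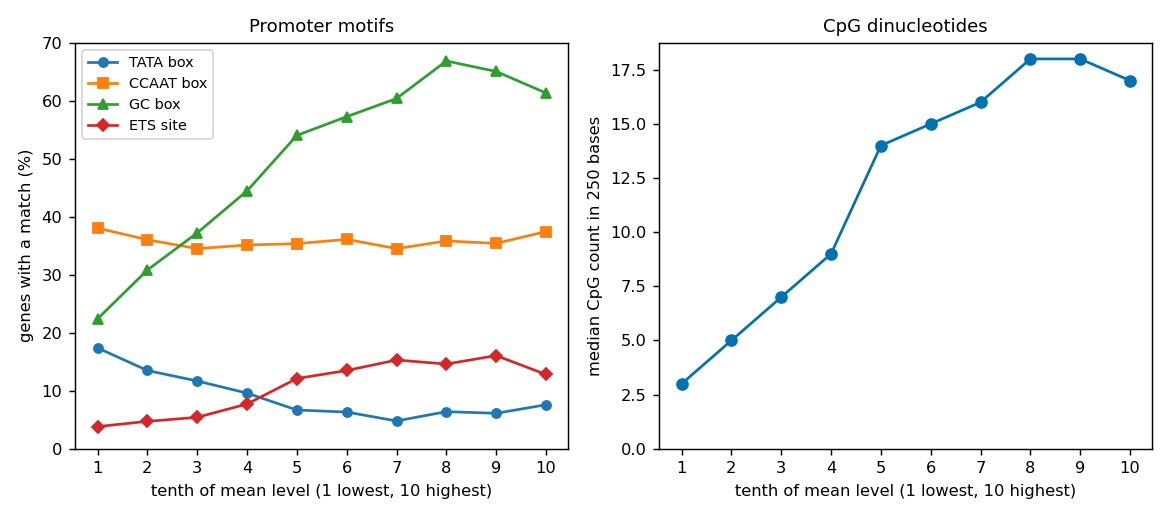
Share of genes with a motif (left, percent) and median CpG count (right) in the 250 bases before the start, in 10 groups of genes by mean level over the 4 arrays. The GC box line climbs from 22.4% to above 60%, the TATA box line falls from 17.4% to below 8%, and the CCAAT line stays near 36%.

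The CArG box, searched on both strands, was in 1.22% of the 14368 promoters and in 1.41% of all 27025 promoters of the table. It was in 8 of the 78 promoters of genes with an SD above 1 (10.3%), in 11 of the 131 of genes more than 1 log2 higher in replicate 8 (8.4%), in 2 of 16 of the contractile list, 2 of 10 of the cardiac list (Actc1 and Myl7) and 2 of 10 of the skeletal list (Acta1 and Myh4). Tagln, Myh11 and Sln were not matched. A match is a description of the letters in this window and no evidence of binding. By contrast the GC box was in 24.4% of the promoters of genes with an SD above 1 and in none of the 10 cardiac ones, against the 49.99% of all.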

How the data were processed

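Whole aortas were profiled on Affymetrix arrays with 45101 probe sets, 1 array per mouse. The deposited values are log2 signals, which the authors computed by RMA according to the series' design text, with chips of each genotype and disease state normalized jointly; whether all 15 arrays were run together is not given in the sources used here. RMA fits probe sets across arrays and quantile normalization evens their distributions, so a shift of all genes at once cannot be seen. The 64 control probe sets, 932 with several genes and 9160 with none were left out, using the 2016 platform annotation; 34945 remained. Genes were keyed by Entrez ID and named from RefSeq (GRCm38.p6). No groups were compared; single arrays were checked with Dixon's test. Members and gene lists were chosen with earlier results of these data known. Named are the markers, the 20 highest means, the 16 largest SDs, the 10 steadiest bright genes, the 6 highest and 4 lowest deviations per array, and, of each list, the extremes of level and spread; 40 further list members were named after their values were seen. A gene's deviation is its level minus the median of the other 3 arrays. The 4 mice limit the precision. Python 3.11.15, pandas 2.3.3, numpy 2.4.6 and matplotlib 3.10.9 were used, with limma 3.58.1 in R 4.3.3 for moderated SDs; the code was tested on simulated data. Alternatives were other backgrounds, probe set rules, normalizations and arrays left out.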

Additional observations from a re-analysis of the deposited data

Results flagged for a closer look

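For each of 234 results, 212 of them levels of single genes, the gap between the highest or lowest array and its nearest neighbour was divided by the range over the 4 arrays. The gap share passed the critical value of Dixon's test for 4 samples in 25 results (10.7%). Chance flags about 1 in 20 groups, and genes named for their spread were among those checked. Replicate 8 was the high array in 15 of the 25 and the low array in 1, replicate 5 the high array in 5 and the low array in 4, and replicates 6 and 7 in none.

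In replicate 8, some atrial and other heart genes passed: the gap share was 0.841 for Sln, 0.847 for Myl7, 0.869 for Myl4, 0.885 for Mybphl and 0.862 for Casq2. Nppa, Tnni3, Pln, Actc1 and Myh6 were also highest there but did not pass. Some genes of striated muscle in general passed too, with 0.831 for Smpx, 0.842 for Csrp3, 0.868 for Lmod2, 0.870 for Ckm, 0.893 for Pgam2, 0.931 for Eno3 and 0.838 for Myh4. Myh1, Acta1, Tnnc2 and Mb did not. The remaining genes that passed as high in replicate 8 were Hamp, the iron hormone, at 0.944, Mbp, the myelin protein, at 0.843, and ND5, of the mitochondrial genome, at 0.923. Col18a1 was the gene that stood low there, at 0.890, on its brightest probe set. On its other probe set replicate 5 was low as well, at 10.13, 10.69, 10.60 and 10.01.

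In replicate 5, Rag1 and Ccr9 of developing T cells stood alone at 0.844 and 0.881, and Cd8a of T cells at 0.863. The cholesterol genes Abca1 and Npc2 were high there by 0.944 and 0.894 of their ranges, which were small. Dimmer probe sets of Abca1 were not highest there, at 4.81, 4.81, 4.99 and 5.11 and at 2.78, 2.87, 3.29 and 3.33. Impact stood low at 0.985, the clock gene Per2 at 0.871, the replication clamp Pcna at 0.853, and Aspn, a small proteoglycan of the matrix, at 0.859. Dimmer probe sets of Per2 differed, at 7.76, 7.66, 7.72 and 7.60 and at 4.71, 5.50, 5.22 and 5.14.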

How the results depend on the processing

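Levels of genes and lists and the counts above background were kept by most alternatives. Taking the median over the probe sets of a gene changed levels most: the contractile list fell from 11.03 to 9.72, and the genes over 1 log2 above the other arrays went from 11 to 5 in replicate 6 and from 7 to 4 in replicate 7, and those below from 6 to 2 in replicate 8. With limma's moderated SD, which draws each gene's SD toward those of genes of similar level, 62 genes exceeded 1 (102 without it) and 160 exceeded 0.5 (331). Over genes above background on all arrays alone, the lowest correlation was 0.9765 in place of 0.986. Leaving out 1 array at a time gave 27 to 126 genes with an SD above 1, the lowest count without replicate 8. The highest correlation ran from 0.9898 to 0.9976. The deviation counts ran from 39 to 86 above and 68 to 120 below in replicate 5, 1 to 19 above and 16 to 126 below in replicate 6, 0 to 16 above and 11 to 116 below in replicate 7, and 4 to 10 below in replicate 8. With 3 arrays each deviation is taken from the mean of 2. Without Pln and Casq2, chosen after seeing the data, the contractile score of replicate 8 was -0.12 in place of 0.19. No paired analysis was possible because 1 group was described and its replicate numbers occur in no other group. The cause of each change in correlation and level was not tested. Depth has no counterpart on arrays; genes near the olfactory receptor background have only a bound.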
